A study of Solanum lycopersicum with 6 samples.

Results

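A run of 42 genes on tomato chromosome 1, carrying the identifiers Solyc01g110550 to Solyc01g110960, was followed in epicotyls of seedlings grown under opposite day and night temperature regimes. Members were all non-control array probes whose gene identifier lies in that range, which gave 55 probes out of 43803, and 42 genes out of 34527 Solyc genes on the array. The rule uses identifiers and no treatment values, though it was set with earlier results of these data known. Of these genes 30 had 1 probe, 11 had 2 probes and 1 had 3 probes. DIF is the day temperature minus the night temperature. Seedlings of the cultivar Managua RZ, 14 d old, were held for 7 d at 25°C by day and 30°C by night (negative DIF) or at 30°C by day and 25°C by night (positive DIF). Both groups had a 16 h photoperiod at 300 µmol m-2 s-1 of light and the same pair of temperatures, and neither carried a mutation or a transgene. RNA from the epicotyl, the stem segment above the cotyledons, was hybridised to 6 one-colour arrays, 3 per treatment, each from a separate sample. The comparison asked which genes differ in the epicotyl when the day and night temperatures are exchanged. With this photoperiod the seedlings also spent more hours of each day at 30°C under positive DIF than under negative DIF, so the order of the temperatures and the time at each cannot be told apart.

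SAUR (SMALL AUXIN UP RNA) genes encode short plant proteins, and many of them are transcribed within minutes of exposure to auxin. In Arabidopsis, proteins of the SAUR19 type inhibit PP2C.D phosphatases, which keeps plasma membrane proton pumps phosphorylated and active and favours cell expansion in hypocotyls and other growing organs. Plant genomes often hold SAUR genes side by side in tandem runs, and close copies can share long stretches of sequence. In this range 3 genes, Solyc01g110630, Solyc01g110790 and Solyc01g110800, were described as auxin-induced SAUR-like proteins in the study's supplementary list. The best Arabidopsis match given there was SAUR19 itself for Solyc01g110790. The other identifiers were not paired with a description in the sources used here, so they are given by identifier only, and whether each one is a SAUR gene was not checked. Copies of near-identical sequence may share signal on a probe. Probe sequences were not used here, and the part of such sharing in the values was not tested.

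Levels are given as log2 of the processed signal minus the 75th percentile of the same array, so a level of 0 equals that percentile. The percentile itself lay between 1475 and 2417 signal units over the 6 arrays, and processed signals of members ranged from 2.48 to 8039. The share of all probes well above background was between 62.2% and 67.0% per array, and no probe was saturated. Negative DIF replicates 1 and 2 shared a slide, and negative DIF replicate 3 shared the other slide with the 3 positive DIF arrays. P-values measure the spread between these samples. In whole epicotyls, fewer cells of a type and less RNA per cell cannot be told apart, and the tissue label was not checked against marker genes.

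The share of the range detected on all arrays was close to that of the whole array. On all 6 arrays 32 of the 55 probes (58.2%) were well above background, against 57.8% of all probes on the array, and 26 of the 42 genes had such a probe. Another 13 probes were well above background on some arrays, and 10 (18.2%) on none, against 27.2% of all probes. The 5 genes with no probe well above background on any array were Solyc01g110650, Solyc01g110760, Solyc01g110830, Solyc01g110850 and Solyc01g110890, named here after their values were seen. They lay apart from each other, between genes with measurable signal. No member was well above background on all arrays of one treatment and on none of the other.

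**Figure D1:**
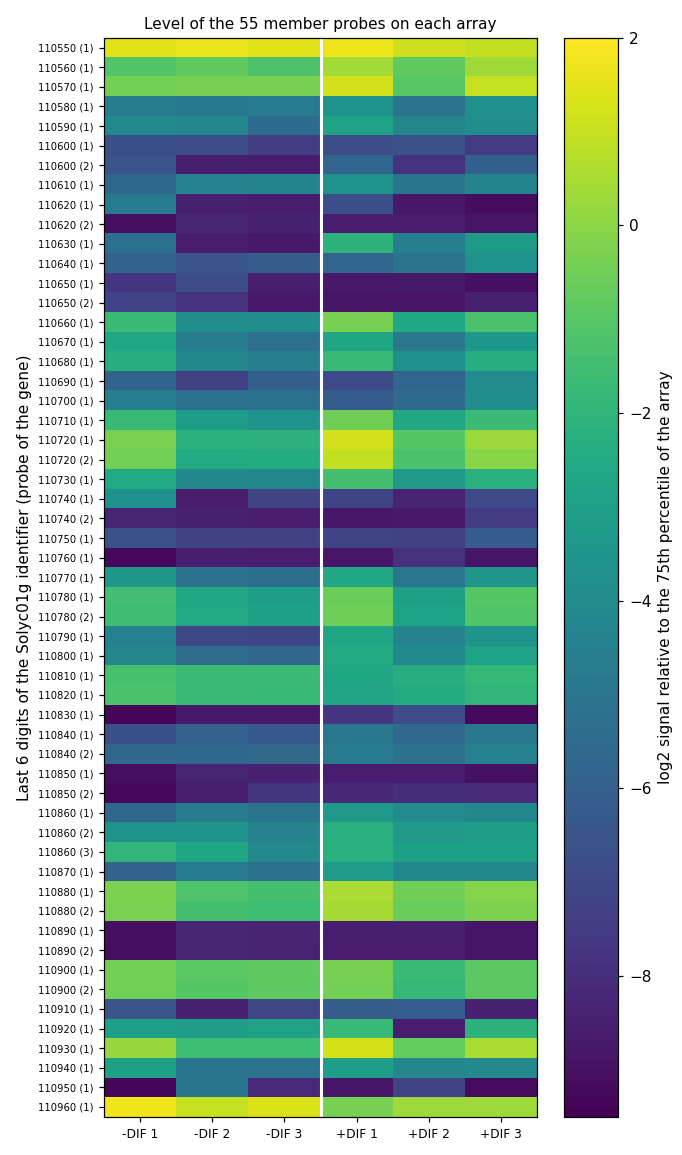
Level (log2 signal minus the 75th percentile of its array) of the 55 member probes, in identifier order from top to bottom, on the 3 negative DIF (-DIF) and 3 positive DIF (+DIF) arrays, with the probe of the gene in parentheses. Bright rows such as Solyc01g110550 and Solyc01g110960 stand among dark rows at background such as both probes of Solyc01g110890, and replicate 1 is the brightest array of either treatment in many rows.

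Most members were at a lower level under negative DIF, but no member passed the test after adjustment. The median log2 fold change over the 55 probes, negative minus positive DIF, was -0.58, with 37 probes below 0 and 18 above. The median over all 43803 probes was 0.07, with 18614 below 0 and 25189 above. Single values ran from -4.25 to 1.27. Over the 32 probes well above background on all arrays the median was -0.88, with 25 below 0. For all 25327 probes detected in that way it was 0.03, with 11898 below 0. In the limma fit with Benjamini-Hochberg adjustment over all probes, 0 members were lower and 0 higher at an adjusted p under 0.05, where 0.495% of all probes were lower and 0.425% higher. The smallest adjusted p of a member was 0.0994. At an unadjusted p under 0.05, 9 member probes of 7 genes were lower (16.4%, against 8.72% of all probes) and 4 probes of 4 genes were higher (7.27%, against 10.2% of all probes). All negative DIF arrays lay below all positive DIF arrays for 9 member probes (16.4%, against 12.4% of all probes) and above them for 4 (7.27%, against 14.6%). The count of lower probes at the unadjusted threshold was 18 without negative DIF replicate 1 and 22 without positive DIF replicate 2. Over all probes it was 3131 and 3527 in these fits, against 3820 with all arrays. With any other array left out, between 7 and 9 member probes were lower. The count of higher member probes was 1 without negative DIF replicate 1 and 1 without positive DIF replicate 2. It was between 1 and 4 with any other array left out.

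**Figure D2:**
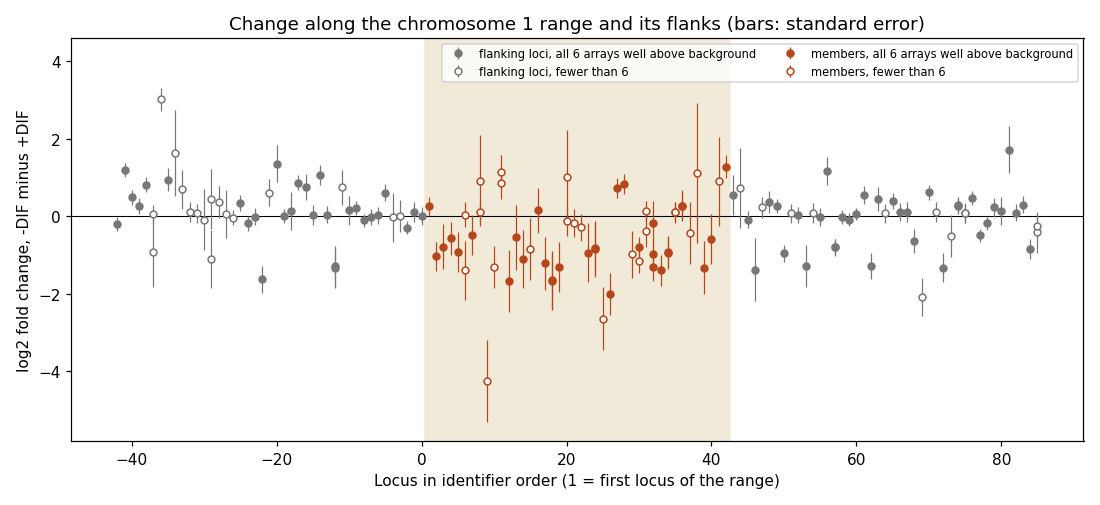
Log2 fold change (negative minus positive DIF, vertical axis, bars for the standard error) of the member probes (orange, shaded range) and of the 43 loci on either side (grey), in identifier order. Filled points were well above background on all 6 arrays. Filled orange points lie mostly between 0 and -2, with Solyc01g110960 at 1.27 at the right end of the range.

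The 3 genes described as SAUR-like had the lowest fold changes in the main setting. With normexp Solyc01g110720 (-1.54 and -1.50 on its probes) and Solyc01g110660 (-1.37) were below Solyc01g110790 and Solyc01g110800, and with the deposited log2 values Solyc01g110720 (-1.55) was just below Solyc01g110800 (-1.54). That list was drawn up from these same arrays by their change and was the only source of descriptions here. Neither the direction of these 3 genes nor their low rank among the members is therefore independent evidence. Solyc01g110630 was at levels of -5.31, -8.57 and -8.72 in negative DIF replicates 1, 2 and 3 and of -2.05, -4.54 and -3.25 in the positive DIF replicates. All positive DIF arrays were above all negative DIF arrays, of which only 1 of 3 was well above background, so the fold rests partly on signal at background. The group means were -7.54 ± 1.92 (SD, n = 3) and -3.28 ± 1.24 (SD, n = 3), a log2 fold change of -4.25 (SE 1.07, limma adjusted p = 0.114, unadjusted p = 0.0067). With the normexp background correction the fold change was -1.81 (limma adjusted p = 0.0368), where the median of all probes was -0.20.

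Solyc01g110790, the gene matched to SAUR19, was at -4.46, -6.99 and -7.11 under negative DIF and at -2.70, -4.37 and -3.54 under positive DIF. Here too the treatments did not overlap, and 1 of the 3 negative DIF arrays was well above background. Its log2 fold change was -2.65 (SE 0.81, limma adjusted p = 0.161, unadjusted p = 0.0158). Without positive DIF replicate 1 its unadjusted p from limma was 0.0576, and with normexp its fold change was -1.30 (limma adjusted p = 0.0376). Solyc01g110800, its neighbour by identifier, was well above background on every array, at -4.25, -5.39 and -5.71 under negative DIF and -2.47, -4.03 and -2.82 under positive DIF. The highest negative DIF array lay just below the lowest positive DIF array, and the log2 fold change was -2.01 (SE 0.54, limma adjusted p = 0.130, unadjusted p = 0.0093). With normexp it was -1.28 (limma adjusted p = 0.0460).

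At the far end of the range the order was the reverse. Solyc01g110960, the last identifier, was at 1.73, 0.98 and 1.39 under negative DIF and at -0.35, 0.31 and 0.33 under positive DIF, so every negative DIF array was above every positive DIF array. Its means were 1.37 ± 0.38 (SD, n = 3) and 0.09 ± 0.39 (SD, n = 3), and its log2 fold change of 1.27 (SE 0.29, unadjusted p = 0.0045) had the smallest adjusted p of the members in limma, 0.0994. Its adjusted p from limma was between 0.0241 and 0.0487 in 5 of the alternative settings, and above 0.05 in every other one. It was 0.0885 with quantile normalization, 0.201 with the replicate block and 0.620 with slide as a fixed block. With any 1 array left out its adjusted p was between 0.166 and 0.223, while its unadjusted p stayed under 0.05.

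Solyc01g110810 and Solyc01g110820, next to Solyc01g110800 by identifier, were also at higher levels under negative DIF. Solyc01g110810 was at -1.37, -1.64 and -1.66 under negative DIF and -2.68, -2.34 and -1.84 under positive DIF, which gave a log2 fold change of 0.73 (SE 0.26, unadjusted p = 0.0295). Solyc01g110820 was at -1.32, -1.66 and -1.74 against -2.78, -2.42 and -1.99, a log2 fold change of 0.82 (SE 0.26, unadjusted p = 0.0192). The difference between these probes stayed within 0.11 log2 of its mean on each of the 6 arrays, so that they moved nearly as 1 signal. Both calls were lost with slide as a fixed block, and of the 6 fits with 1 array left out they held in 1 for Solyc01g110810 and 3 for Solyc01g110820. From Solyc01g110800 to Solyc01g110810 the log2 fold change went from -2.01 to 0.73 between adjacent identifiers.

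The fourth probe at the higher side, probe 1 of Solyc01g110650, did not reach the well-above-background call on any of the 6 arrays, so its fold is not read. Its call was kept in 1 of the 6 fits with an array left out, and its sign turned with the normexp correction.

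**Figure D3:**
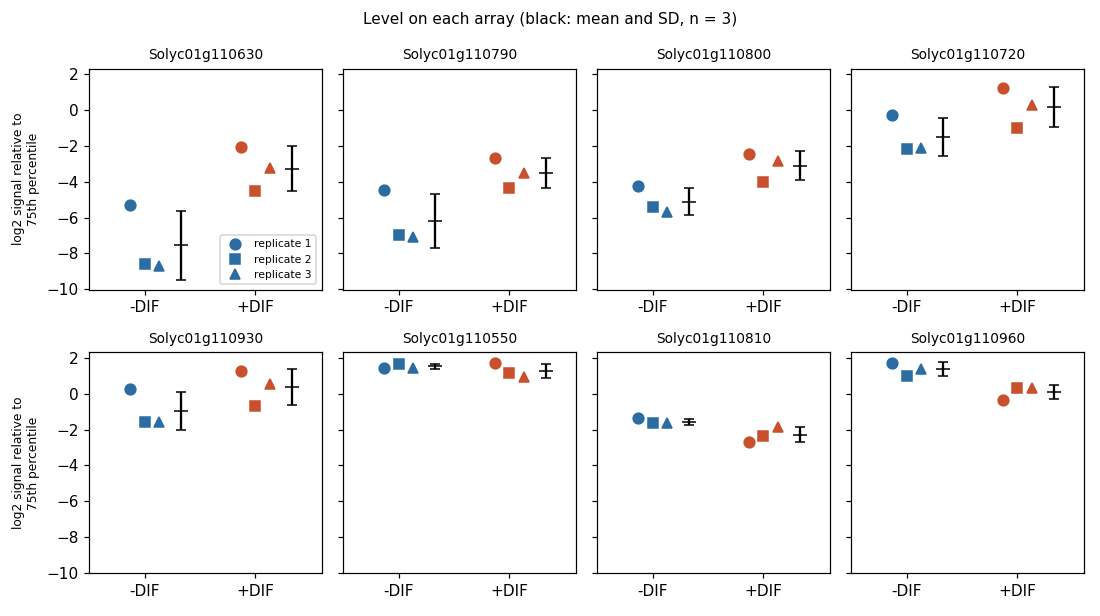
Level (log2 signal minus the 75th percentile of its array, vertical axis) of 8 member genes on the negative DIF (-DIF, blue) and positive DIF (+DIF, orange) arrays, with replicates 1, 2 and 3 as circle, square and triangle and the mean with SD in black. The 3 SAUR-like genes Solyc01g110630, Solyc01g110790 and Solyc01g110800 and the last gene Solyc01g110960 do not overlap between treatments, in opposite directions, while Solyc01g110720 and Solyc01g110930 overlap in replicate 1 of negative DIF and replicate 2 of positive DIF.

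Among the 20 member probes with the highest mean level, a choice that did not use the treatment, 14 had a fold change below 0. Over the whole array 18614 of 43803 probes had one. Of the 20, 4 passed the unadjusted threshold. Solyc01g110560 was the 1 lower and Solyc01g110810, Solyc01g110820 and Solyc01g110960 were the 3 higher probes, and with 8.72% of all probes lower and 10.2% higher, 4 of 20 was close to the share over the whole array. The first identifiers of the range were among the 20 by level. Solyc01g110550 was at 1.46, 1.67 and 1.46 under negative DIF and 1.71, 1.18 and 0.93 under positive DIF, with overlapping treatments and a log2 fold change of 0.26 (SE 0.25). Solyc01g110560 was at -1.14, -0.82 and -1.21 against 0.41, -0.82 and 0.35. Its positive DIF replicate 2 lay among the negative DIF arrays, the log2 fold change was -1.03 (SE 0.37, unadjusted p = 0.0296), and the call held in 2 of the 6 fits with an array left out and not with slide as a fixed block. Solyc01g110570 was near -0.38 on the negative DIF arrays (SD 0.02, n = 3), but spanned 1.20, -0.98 and 0.99 on the positive DIF arrays, so its fold change of -0.79 (SE 0.58) did not pass the test.

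The middle of the range held several genes with high signal whose treatments overlapped. Solyc01g110720 was at -0.30, -2.17 and -2.12 under negative DIF and 1.21, -1.03 and 0.28 under positive DIF on its first probe. Its log2 fold change was -1.68 (SE 0.73, unadjusted p = 0.0596), and the second probe gave -1.65 (SE 0.76). In the same way Solyc01g110660 had a log2 fold change of -1.67 (SE 0.79, unadjusted p = 0.0771), with levels of -1.66, -3.76 and -3.84 against -0.34, -2.60 and -1.31. In both genes negative DIF replicate 1 was above positive DIF replicate 2, the only pair of arrays in which the treatments overlapped.

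Other members of that stretch named by level gave smaller ratios to their errors. The log2 fold change was -1.10 (SE 0.74) for Solyc01g110680, -1.22 (SE 0.69) for Solyc01g110710 and -1.32 (SE 0.65) for Solyc01g110730. For Solyc01g110780 the probes gave -0.85 (SE 0.72) and -0.82 (SE 0.66). None of them passed the unadjusted threshold with all arrays, and without negative DIF replicate 1 those of Solyc01g110660, Solyc01g110680, Solyc01g110710, Solyc01g110720 and Solyc01g110730 did, with log2 fold changes between -1.76 and -2.38.

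Beyond the pair at Solyc01g110810 and Solyc01g110820 the values were mixed. Solyc01g110880 was at -0.26, -1.18 and -1.40 under negative DIF and 0.52, -0.49 and -0.09 under positive DIF on its first probe, with log2 fold changes of -0.93 (SE 0.40) and -0.94 (SE 0.43) on its probes. Solyc01g110900 gave 0.25 (SE 0.37) and 0.27 (SE 0.40), with overlapping arrays, and both values turned sign without positive DIF replicate 2. Solyc01g110930 was at 0.24, -1.56 and -1.57 against 1.26, -0.71 and 0.55, a log2 fold change of -1.33 (SE 0.68, unadjusted p = 0.0979) with the same high replicate 1 in both treatments.

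The remaining probes at the unadjusted threshold, named after their values were seen, came from 3 neighbouring genes. Solyc01g110840 had log2 fold changes of -1.16 (SE 0.30, unadjusted p = 0.0077) and -0.79 (SE 0.24, unadjusted p = 0.0153) on its probes, the first of which was well above background on only 1 of 3 negative DIF arrays. Solyc01g110860 is the gene with 3 probes, and they differed. The first gave -1.32 (SE 0.35, unadjusted p = 0.0085), the second -0.97 (SE 0.37, unadjusted p = 0.0387) and the third -0.18 (SE 0.58, unadjusted p = 0.760), a spread of 1.14, where the next largest spread between probes of a gene detected on all arrays was 0.37 over 6 such genes. On the third probe the negative DIF arrays were at -1.92, -2.76 and -4.11, and on the first at -5.67, -4.67 and -5.03, so that replicate 1 was the highest on one probe and the lowest on the other. The call of the second probe held in 2 of the 6 fits with an array left out. Which probe reads the transcript of this gene was not tested.

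Solyc01g110870 was at -5.83, -4.81 and -5.17 under negative DIF and -3.16, -4.22 and -4.23 under positive DIF, without overlap, and its log2 fold change was -1.40 (SE 0.40, unadjusted p = 0.0122). Its difference from the first probe of Solyc01g110860 stayed within 0.24 log2 of its mean on every array. Solyc01g110870, both probes of Solyc01g110840 and the first probe of Solyc01g110860 had negative DIF replicate 1 as their lowest array, unlike Solyc01g110660 or Solyc01g110930, where it was the highest of the negative DIF arrays. The calls of Solyc01g110870, the second probe of Solyc01g110840 and the first probe of Solyc01g110860 were lost with slide as a fixed block.

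A further member named after its values were seen was Solyc01g110920. It was at -3.01, -3.11 and -2.86 under negative DIF and -1.69 and -2.05 in positive DIF replicates 1 and 3, but at -8.59, not well above background, in positive DIF replicate 2. Its log2 fold change of 1.12 (SE 1.80, unadjusted p = 0.557) therefore had the opposite sign to the comparison of the other 2 positive DIF arrays with negative DIF. Solyc01g110640 did not overlap between treatments, with a fold change of -1.30 (SE 0.54, unadjusted p = 0.0512), and missed the unadjusted threshold.

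The spread between replicates of a treatment was wide among the members. Over the 32 probes detected on all arrays, the median SD within a treatment was 0.70 for negative and 0.73 for positive DIF on the log2 scale, where all probes detected in that way had 0.20 and 0.28. The loci before the range had 0.17 and 0.24, and those after it 0.19 and 0.29. A wide spread was not particular to the range, since a chromosome 4 group described below had 0.89 and 0.70. The 32 member probes were also dimmer, with array medians from -3.72 to -1.55, against -0.49 to -0.45 for all probes detected on all arrays. Whether the spread goes with level was not tested. The variation had a common pattern over arrays. Negative DIF replicate 1 was the highest negative DIF array for 24 of the 32 probes (75%, against 38.5% of all probes detected in the same way), and positive DIF replicate 1 was the highest positive DIF array for 27 (84.4%, against 40.5%). Positive DIF replicate 2 was the lowest positive DIF array for 25 (78.1%, against 28.5%). Expressed as the deviation from the mean of each probe over the 6 arrays, the median over the 32 probes was 0.45, -0.41 and -0.98 log2 in negative DIF replicates 1, 2 and 3 and 1.16, -0.38 and 0.56 in the positive DIF replicates. Negative DIF replicate 1 was thus above positive DIF replicate 2 for 25 of the 32 probes (78.1%, against 54.8% of all probes detected in the same way). Negative DIF replicate 3 was above it for 10 (31.2%, against 53.1%).

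**Figure D4:**
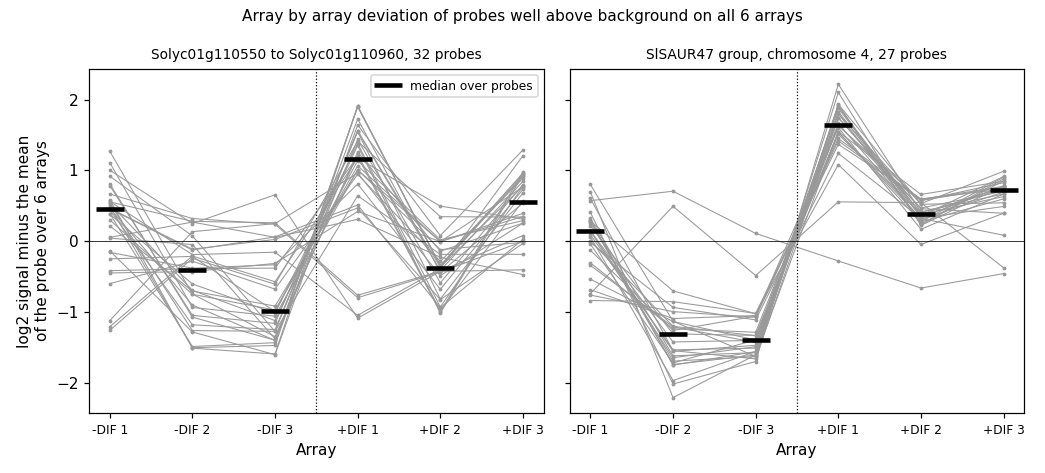
Log2 signal minus the mean of the probe over the 6 arrays (vertical axis) for each probe well above background on all arrays (grey lines) on the negative DIF (-DIF) and positive DIF (+DIF) arrays, for the chromosome 1 range (left, 32 probes) and the chromosome 4 group (right, 27 probes), with the median over probes as a black bar. In both panels replicate 1 is the highest array of its treatment by the median, and positive DIF replicate 2 lies below negative DIF replicate 1 by the median in the left panel only.

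Leaving out negative DIF replicate 1 moved 37 of the 55 members to a lower fold change, and 25 of the 32 detected on all arrays. The number of these 32 with a log2 fold change below -1 went from 11 to 19. A fold change falls by arithmetic wherever that array lies above the mean of the negative DIF arrays. The counts of moved probes therefore restate its high level and are not a separate test. The matching shares over all probes were not counted. The median over the 55 probes was -0.77 without negative DIF replicate 1, -0.99 without positive DIF replicate 2 and -0.38 without positive DIF replicate 1. Over all probes the median was 0.13, 0.11 and 0.10 in these fits.

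**Figure D5:**
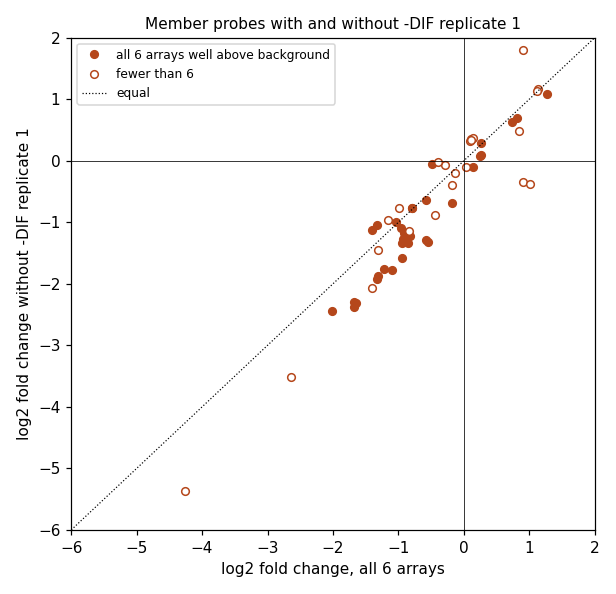
Log2 fold change (negative minus positive DIF) of the 55 member probes with all 6 arrays (horizontal axis) and without negative DIF replicate 1 (vertical axis), filled where the probe was well above background on all arrays, with a dotted line where both are equal. Of the 55 points, 37 lie below the line, which by arithmetic are those with negative DIF replicate 1 above the mean of its treatment.

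The flanks of the range had medians close to that of all probes. The 43 loci before it (46 probes) had a median log2 fold change of 0.09, with 3 probes lower (6.52%) and 8 higher (17.4%) at the unadjusted threshold, and the 43 loci after it (47 probes) had a median of 0.07, with 8 lower (17%) and 4 higher (8.51%). The share of lower probes just after the range was thus as large as the 16.4% among the members, although the medians differed. These are descriptions, and the difference between the range and its flanks was not tested.

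A second stretch of identifiers, the chromosome 4 group around SlSAUR47 (Solyc04g052890 to Solyc04g053030), was set beside the range. Its ends were taken from the study's list of lower genes, which was drawn from these same arrays, so a high share of lower probes is partly fixed by that choice. Of its 32 probes, 24 (75%) were lower and 1 was higher at the unadjusted threshold, with a median log2 fold change of -1.88. The 3 probes of Solyc04g053010 passed the adjusted threshold in limma, with adjusted p of 0.0438, 0.0498 and 0.0447. These calls were lost with slide as a fixed block (limma adjusted p of 0.347, 0.381 and 0.347) and without negative DIF replicate 1 (0.118, 0.116 and 0.114). In either setting 0 of all 43803 probes passed, so the loss is not particular to this gene. Its log2 fold changes were -1.80, -1.88 and -1.88 in the main fit. They were -1.92, -1.99 and -2.01 with the fixed block and -1.84, -2.01 and -1.97 without that array. Replicate 1 was high here as well: negative DIF replicate 1 was the highest negative DIF array for 25 of 27 detected probes and positive DIF replicate 1 the highest positive DIF array for 27 of 27. Negative DIF replicate 1 was above positive DIF replicate 2 for 7 of these 27 probes (25.9%), against 25 of 32 in the chromosome 1 range. Among all probes detected on all arrays the share was 54.8%. SlSAUR47 itself (Solyc04g053000) was at -2.20, -3.06 and -3.28 against -0.23, -1.28 and -1.09 on its first probe, a log2 fold change of -1.98 (SE 0.40, limma adjusted p = 0.0783), and -2.04 (SE 0.33, limma adjusted p = 0.0556) on its second.

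The auxin biosynthesis genes of the study were read in the same fit. SlYUC (Solyc08g068160), a flavin monooxygenase of the YUCCA family that makes auxin from indole-3-pyruvate, was at -1.74, -1.22 and -0.83 under negative DIF and 0.11, -0.50 and 0.09 under positive DIF. The treatments did not overlap, and the log2 fold change was -1.17 (SE 0.31, limma adjusted p = 0.123, unadjusted p = 0.0081). Among its negative DIF arrays replicate 1 was the lowest, where it was the highest for most detected members of the chromosome 1 range. SlTAA1 (Solyc05g031600), the aminotransferase of the preceding step, did not reach the well-above-background call on the 6 arrays, and no fold is given.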

How the data were processed

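Total RNA of 3 negative DIF and 3 positive DIF epicotyl samples was hybridised by the authors to one-colour Agilent arrays. The authors deposited spot intensity values from Feature Extraction 10.10.1.1, background-subtracted and not normalized between arrays. They also deposited normalized log2 values, used only as an alternative. The heading of that table names the opposite treatments, so its columns were assigned by their rank order to the scanner intensity values. Here log2 of the processed signal was taken, the 75th percentile of each array subtracted, and treatment fitted in limma 3.58.1 (R 4.3.3), two-sided, with Benjamini-Hochberg adjustment over 43803 probes, no filter on dim probes and control and outlier spots left out. The number of arrays limits precision. The fit was tested on simulated data. Plots were made with Python 3.11.15 and matplotlib 3.10.9.

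Members and lists were chosen with earlier results of these data known. Genes named were the 20 probes of highest mean level, any at an adjusted p under 0.05, the 3 largest falls and 3 largest rises at an unadjusted p under 0.05, and SlYUC, SlTAA1 and SlSAUR47. Planned lists of other SAUR genes and green-tissue markers by description were not made, since the reference table used here pairs no descriptions with these identifiers. Sequences were not used. Replicate numbers are shared by the treatments. Over all probes well above background on all arrays, deviations of same-numbered arrays correlated at 0.006, 0.044 and 0.223. The arrays were therefore not treated as pairs. These correlations do not settle pairing for the members alone, where replicate 1 was often the highest array of either treatment. Alternatives covered normalization, background correction, a filter on dim probes, the test, slide, replicate number and each array left out.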

Additional observations from a re-analysis of the deposited data

How the results depend on the processing

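The median log2 fold change of the 55 member probes was below 0 in every setting tried, from -0.38 to -0.99 with 1 array left out and from -0.43 with normexp to -0.93 with the filter on dim probes, which left 37 member probes. Counts moved more. At an adjusted p under 0.05 in limma, 3 members (Solyc01g110630, Solyc01g110790 and Solyc01g110800) were lower with normexp, against 0. With the random slide block 2 other probes, the first of Solyc01g110840 and the first of Solyc01g110860, were lower. Over all probes 1129 were lower with normexp and 1527 with the random slide block, against 217. The correlation within slides that the random block used was estimated at -0.216. Solyc01g110960 was the 1 member higher with the deposited log2 values, normexp, the dim filter, a trended robust prior and the random slide block, against 0. Over all probes of each fit the higher calls were 1127, 970, 955, 889 and 1490 in these settings, against 186. The deposited values covered 33614 genes and the dim filter left 26942 probes. Normexp also moved the median of all probes to -0.20. Its folds and p-values are given without that shift taken out. At an unadjusted p under 0.05 the 9 lower probes became 21 with normexp, 14 with the trended robust prior and 19 with the replicate block. They were between 7 and 22 with 1 array left out. Over all probes the lower calls were 6358, 4159 and 3377 in these 3 settings, against 3820 in the main fit. With 1 array left out they were between 2802 and 3527 over all probes. The 4 higher probes became 1 with slide as a fixed block, 2 with the replicate block and between 1 and 4 with 1 array left out. Over all probes the higher calls were 1700, 3822 and between 2878 and 4426 in these settings, against 4450. The replicate block gave 0 adjusted calls in limma, both among members and over all probes. Student's test on the same values gave 0 adjusted calls among members, and 17 lower and 12 higher over all probes. Unadjusted, it gave 6 member probes lower and 3 higher, with 3715 and 4111 over all probes. With slide as a fixed block, 6 of the 13 probes at the unadjusted threshold kept it. The cause of these moves was not tested. The named probes counted next include those of SlYUC, SlTAA1 and SlSAUR47 besides members. SlYUC and SlSAUR47 newly passed the adjusted threshold with normexp. Of all values for named probes, 387 kept direction and side of that threshold, 19 passed it newly and 6 turned sign. Those 6 were Solyc01g110650 probe 1, at background on every array, with normexp (-0.16), Solyc01g110860 probe 3 with slide as a random block (0.18), without negative DIF replicate 3 (0.41) and without positive DIF replicate 1 (0.09), and the probes of Solyc01g110900 without positive DIF replicate 2 (-0.093 and -0.14). With 1 array left out the fold change of Solyc01g110860 probe 3 ranged from -0.69 to 0.41, and those of Solyc01g110900 from -0.093 to 0.55 and from -0.14 to 0.59.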
